A study of Mus musculus with 19 samples.

Results

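Skin of Scl-cGVHD mice given the anti-CX3CL1 mAb at 0.5 mg (n = 3) was compared with skin of Scl-cGVHD mice given control IgG (n = 3). The labels give no dose for the control IgG, and the methods of the study name 0.5 mg or 1 mg for either antibody. The 6 mice were taken by model and treatment label from the 19 mice of the study, and 16350 of the 50686 genes in the table were kept because they reached 1 TPM in at least 3 of the 19 mice. Scl-cGVHD is a sclerodermatous chronic graft-versus-host disease. It was made by irradiating female BALB/c mice of 8 to 12 weeks and giving them T cell-depleted bone marrow and splenocytes of male B10.D2 donors, while syngeneic controls received the same cells from male BALB/c donors. The neutralising mAb against mouse CX3CL1, or an IgG control mAb against the hapten DNP, was injected intraperitoneally from day 7 to day 35 after bone marrow transplantation (BMT), and skin was taken on day 42. Irradiated recipients keep their own keratinocytes, fibroblasts, muscle and resident cells, so the skin holds recipient cells beside donor leukocytes. Beside these 6 mice, syngeneic mice given IgG (n = 3) or mAb (n = 5, dose not given in the labels) and the Scl-cGVHD group at 1 mg of mAb (n = 5) stood in the same fit and are named where they place a value. Sets of 3 values are given in the order mouse 1, 2 and 3 of a group, where the numbers are names only and pair no mice. Where a gene has a pair of sets, the IgG mice come first and the 0.5 mg mice second.

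CX3CL1 (fractalkine) is a chemokine made as a membrane protein, mainly by endothelium and epithelium, and cut free by the proteases ADAM10 and ADAM17. Its receptor CX3CR1 is carried by monocytes, macrophages and some T cells and NK cells, so the chemokine both holds and attracts leukocytes. Macrophages engulf IgG-coated particles through Fc gamma receptors and sense microbial products through Toll-like receptors, which share the adaptor MyD88 and the kinase IRAK4 with the IL-1 receptor.

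Transcripts of the chemokine, its receptor and its proteases gave no difference beyond the spread between mice. Cx3cl1 was measured at 5.19, 3.46 and 5.65 TPM in the IgG mice and at 3.88, 9.16 and 7.94 TPM in the 0.5 mg mice. TPM is a share of all transcripts, corrected for gene length, with the same sum in every mouse. The Cx3cl1 groups overlapped, and the log2 fold change was 0.42 (95% interval -0.20 to 1.05, adjusted p = 0.551 from limma). The mAb acts on the protein, so this level does not check the treatment. Cx3cr1 stayed below 1 TPM in each of the 6 mice, at 0.78, 0.35 and 0.25 TPM and 0.08, 0.87 and 0.24 TPM. The proteases Adam10 and Adam17 also overlapped between groups.

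Transcripts of donor cells were present in all 6 mice. Eif2s3y, a Y-linked gene that female recipients lack, lay at 4.74, 15.1 and 9.44 TPM in IgG mice and 7.51, 4.74 and 6.47 TPM in 0.5 mg mice, and Ddx3y at 2.36, 6.35 and 3.17 TPM and 2.43, 2.87 and 2.49 TPM. Both genes overlapped between groups, and 3 further Y-linked genes (Kdm5d, Uty and Usp9y) were below the filter. Donor and recipient strains may be measured unequally where their sequence departs from that of the reference genome, and the part of the donor share in the results was not tested. The skin label was checked against cell type markers, and Krt5 and Krt14 of basal keratinocytes lay between 1658 and 8903 TPM. Skeletal muscle transcripts were also abundant, with Acta1 between 1635 and 8639 TPM, while the hair keratin Krt31 did not exceed 0.19 TPM.

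On the first principal component the 0.5 mg mice were more spread than the IgG mice, whereas the correlation of log2(TPM + 1) over genes was similar within both groups (Pearson r of 0.901, 0.954 and 0.937 for the pairs of IgG mice and 0.885, 0.953 and 0.941 for those of 0.5 mg mice). Both the highest and the lowest r crossed the groups. IgG mouse 1 reached 0.964 with 0.5 mg mouse 1 and 0.960 with 0.5 mg mouse 3, above every pair within a group. IgG mouse 2 with 0.5 mg mouse 2 gave 0.836. Genes are not independent replicates, and these r values are a description. The first component held 50.3% of the variance over all 19 mice, and the IgG mice lay at 60.2, 72.7 and 66.0 and the 0.5 mg mice at 81.6, -39.3 and 28.5. The syngeneic mice lay between -73.5 and -54.8. Thus 0.5 mg mouse 1 lay beyond all IgG mice on the side away from the syngeneic mice, mouse 2 lay nearest to the syngeneic mice, and mouse 3 lay between. Mitochondrial transcripts made up 2.35%, 2.93% and 3.32% of all transcripts in the IgG mice and 1.52%, 9.93% and 3.32% in the 0.5 mg mice. Libraries of the study held 22699740 to 38841010 read pairs (median 29298146), of which 20325491 to 35005382 were mapped uniquely.

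**Figure D1:**
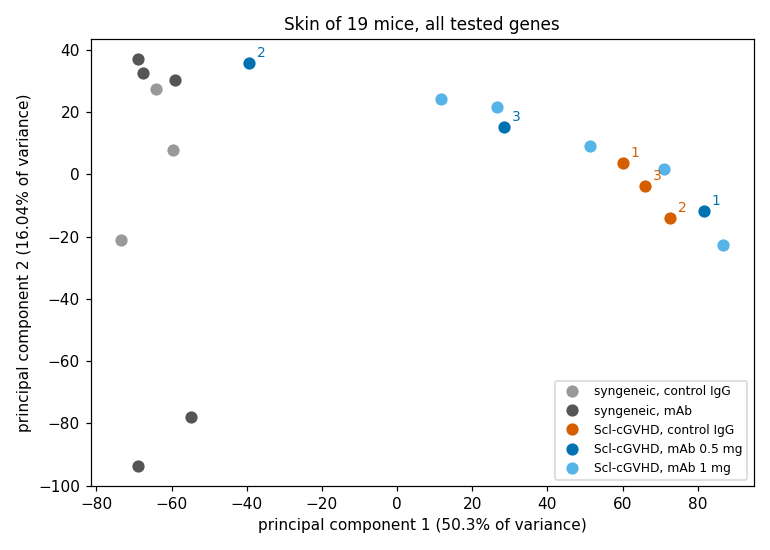
Position of each of the 19 mice on the first (50.3% of the variance) and second (16%) principal components of log2(TPM + 1), with points coloured by group and the 6 mice compared here numbered. The 3 numbered IgG mice sit together between 60.2 and 72.7 on the first component, while the numbered 0.5 mg mice spread from -39.3 to 81.6.

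Across all tested genes, limma called 2 genes higher (0.0122% of those tested) and 7 genes lower (0.0428%) at 0.5 mg, at an adjusted p under 0.05. The 9 genes shared the adjusted p of 0.0475, just inside the threshold. At an unadjusted p under 0.05, 932 genes (5.7%) were higher and 1435 (8.78%) lower. In 695 genes (4.25%) all 3 treated mice lay above all 3 IgG mice, and in 1125 genes (6.88%) they lay below. Overlap was read on TPM throughout, without further scaling. Median-ratio factors, the typical level of a mouse's genes relative to all mice, were 0.877, 0.902 and 0.93 in IgG mice. They were 0.672, 1.13 and 0.919 in 0.5 mg mice. Overlap was not counted again with these factors, under which narrow gaps to 0.5 mg mouse 1 can close. The median log2 fold change over all genes was -0.0046. Single mice decided the number of calls. Leaving out IgG mouse 1 gave 271 genes higher (1.66% of those tested) and 545 lower (3.34%), and leaving out 0.5 mg mouse 1 gave 149 higher (0.914%) and 77 lower (0.472%). Leaving out 0.5 mg mouse 2 or mouse 3 gave no call (2503 and 1882 genes at an unadjusted p under 0.05), and leaving out IgG mouse 2 gave 1 gene higher (0.00614%) and none lower. Leaving out IgG mouse 3 gave 1 higher (0.00614%) and 2 lower (0.0123%). Leaving out a mouse of the other groups, which enter the fit only through the shared spread and the filter, gave 0 to 46 calls.

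The 7 genes that fell included receptors and signalling proteins of leukocytes, and their 3 treated mice lay below all IgG mice in each case. Gpr35 (ENSMUSG00000026271, GRCm38 chromosome 1, 92950865 to 92986391), a G protein-coupled receptor of leukocytes and gut epithelium, was measured at 15.6, 20.3 and 11.2 TPM in IgG mice and 4.62, 1.77 and 2.8 TPM in 0.5 mg mice. It had the largest fall of the called genes, with a log2 fold change of -2.06 (standard error 0.32). P2ry13 (ENSMUSG00000036362, chromosome 3, 59207892 to 59210882), a receptor for ADP, was measured at 2.67, 8.59 and 4.38 TPM and 0.51, 1.03 and 0.36 TPM and fell by 1.84 on the log2 scale (standard error 0.32). Cd80 (ENSMUSG00000075122, chromosome 16, 38458933 to 38486933), the ligand through which antigen-presenting cells engage CD28 and CTLA-4 on T cells, was measured at 3.57, 10.2 and 4.23 TPM and 1.05, 0.7 and 1.25 TPM and fell by 1.70 (standard error 0.29). IgG mouse 2 was the highest of the 6 mice for all 3 of these genes, yet the other IgG mice also stood above the treated mice.

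Irak4 (ENSMUSG00000059883, chromosome 15, 94543643 to 94581815), the kinase that passes signals from Toll-like and IL-1 receptors, had a narrow spread on TPM in both groups. Its level was 10.1, 10.2 and 10.8 TPM in IgG mice and 4.73, 4.56 and 5.1 TPM in 0.5 mg mice, a log2 fold change of -0.97 (standard error 0.17). On TPM all 3 treated mice lay near the same level, and none came near the IgG mice. Their median-ratio factors differ (0.672, 1.13 and 0.919), so scaling would spread the treated values, still below the IgG mice. Cotl1 (ENSMUSG00000031827, chromosome 8, 119809222 to 119840544), which binds actin filaments, was the most abundant called gene, at 141, 300.4 and 166 TPM and 89, 61 and 73.7 TPM (log2 fold change -1.37, standard error 0.24). Apobec3 (ENSMUSG00000009585, chromosome 15, 79891659 to 79915906), a cytidine deaminase that restricts retroviruses, was measured at 20.4, 30.8 and 20.6 TPM and 7.12, 7.68 and 11.9 TPM (log2 fold change -1.34, standard error 0.24). Gm15934 (ENSMUSG00000090088, chromosome 10, 45287311 to 45289424), annotated as an antisense transcript, was low throughout, at 2.02, 2.78 and 1.51 TPM and 0, 0.55 and 0.2 TPM (log2 fold change -1.31, standard error 0.22). Its reads may belong in part to the gene on the other strand, because the strand setting of the counting is not given in the sources used here.

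The 2 genes that rose were Plac9b and Baz2b. Baz2b (ENSMUSG00000026987, chromosome 2, 59899363 to 60209839), a bromodomain protein of chromatin remodelling complexes, was measured at 26.8, 18.3 and 21.5 TPM in IgG mice and 42.6, 45.1 and 49.5 TPM in 0.5 mg mice, a log2 fold change of 1.02 (standard error 0.17). Plac9b (ENSMUSG00000072674, chromosome 14, 26167405 to 26182480) was measured at 17.2, 11.8 and 12.9 TPM and 44.8, 38.1 and 36.8 TPM, a log2 fold change of 1.46 (standard error 0.25). In both genes the lowest treated mouse stood well above the highest IgG mouse. Plac9b has a near-identical copy, Plac9a, with which it may share reads, and Plac9a itself lay at 4.79, 7.13 and 6.28 TPM and 3.87, 4.85 and 12.8 TPM. The sum of both copies was 22.0, 18.9 and 19.2 TPM in IgG mice and 48.6, 42.9 and 49.6 TPM in 0.5 mg mice, which also did not overlap.

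**Figure D2:**
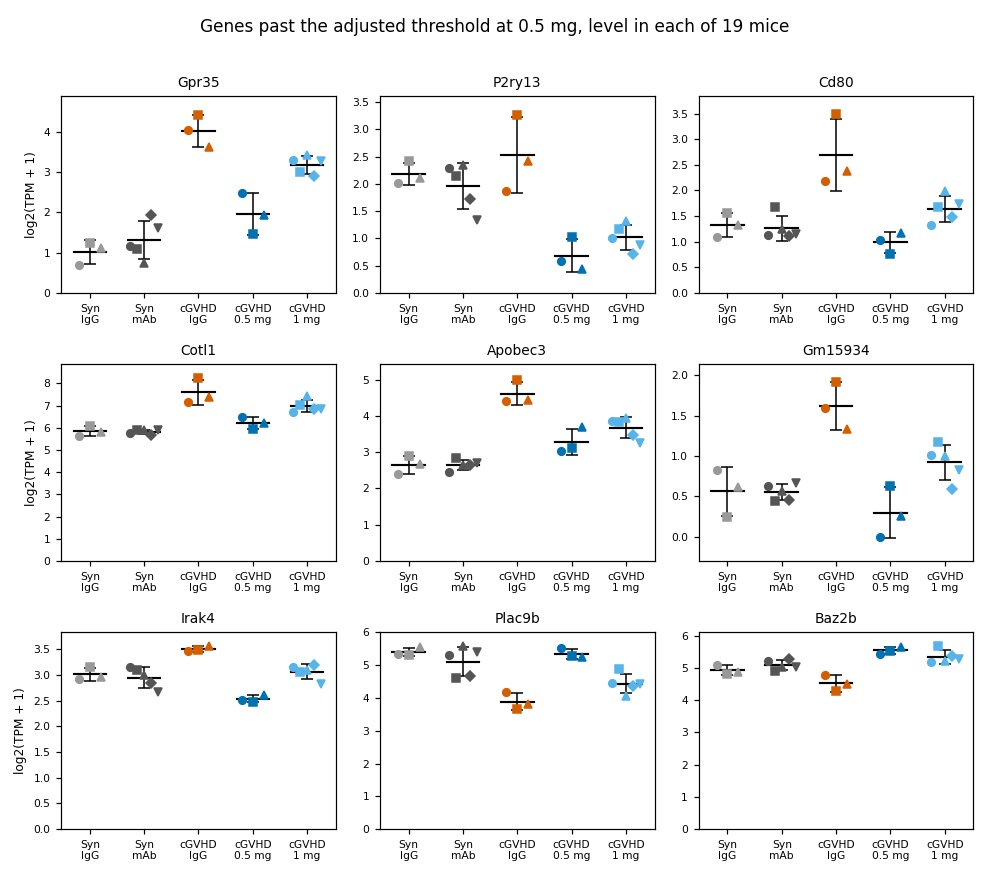
Level of the 9 called genes as log2(TPM + 1) in each of 19 mice, by group (Syn, syngeneic; cGVHD, Scl-cGVHD), with a horizontal line at the mean, bars of 1 SD and the mouse number given by the marker shape. In each panel the 3 mice at 0.5 mg lie on 1 side of the 3 Scl-cGVHD IgG mice, as for Irak4 at 4.73, 4.56 and 5.1 TPM against 10.1, 10.2 and 10.8 TPM, and the mean of the 5 mice at 1 mg lies between.

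Promoter sequences are shown for the receptors and signalling genes that fell, so that the start regions of genes with a shared direction can be read side by side. RefSeq windows on GRCm38.p6, from 250 bases before to 50 bases after the annotated start site, matched 7 of the 9 called genes, and Cotl1 and Gm15934 had no entry. The windows are those of Cd80 (chr16:38458683-38458982, plus strand), Gpr35 (the second of 2 start sites, chr1:92978653-92978952, plus strand), Irak4 (chr15:94543410-94543709, plus strand), Apobec3 (the first of 2, chr15:79892158-79892457, plus strand) and P2ry13 (chr3:59210833-59211132, minus strand). Capitals mark letters that match a searched motif on either strand.
Cd80: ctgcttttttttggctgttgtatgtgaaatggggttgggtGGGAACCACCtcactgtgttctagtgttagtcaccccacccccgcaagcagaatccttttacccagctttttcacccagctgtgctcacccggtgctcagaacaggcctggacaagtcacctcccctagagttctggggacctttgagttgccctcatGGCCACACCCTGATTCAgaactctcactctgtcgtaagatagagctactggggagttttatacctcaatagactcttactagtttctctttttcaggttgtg
Gpr35: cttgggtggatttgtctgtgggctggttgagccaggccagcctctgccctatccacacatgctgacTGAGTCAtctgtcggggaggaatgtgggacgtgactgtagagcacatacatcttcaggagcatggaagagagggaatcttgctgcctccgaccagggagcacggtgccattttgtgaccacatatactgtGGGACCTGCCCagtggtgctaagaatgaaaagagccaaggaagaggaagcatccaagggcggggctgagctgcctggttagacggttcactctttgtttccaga
Irak4: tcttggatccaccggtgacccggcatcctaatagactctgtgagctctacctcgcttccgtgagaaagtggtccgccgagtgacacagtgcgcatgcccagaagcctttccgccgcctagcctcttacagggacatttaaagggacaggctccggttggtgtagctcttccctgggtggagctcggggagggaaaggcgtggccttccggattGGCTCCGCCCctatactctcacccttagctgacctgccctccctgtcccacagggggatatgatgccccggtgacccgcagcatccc
Apobec3: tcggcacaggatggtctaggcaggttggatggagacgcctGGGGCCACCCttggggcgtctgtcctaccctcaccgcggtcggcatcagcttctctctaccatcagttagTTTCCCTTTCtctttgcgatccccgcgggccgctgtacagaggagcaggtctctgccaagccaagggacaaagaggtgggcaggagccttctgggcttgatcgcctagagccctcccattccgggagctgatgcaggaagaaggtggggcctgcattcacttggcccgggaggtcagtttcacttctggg
P2ry13: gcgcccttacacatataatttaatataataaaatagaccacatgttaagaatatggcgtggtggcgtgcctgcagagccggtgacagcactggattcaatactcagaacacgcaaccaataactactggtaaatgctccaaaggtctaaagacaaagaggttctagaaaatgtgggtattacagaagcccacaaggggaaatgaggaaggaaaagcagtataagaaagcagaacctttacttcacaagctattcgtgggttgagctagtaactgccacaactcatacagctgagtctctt

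The letters searched on both strands were GGG and CC parted by any 5 bases for NF-kB, TGANTCA for AP-1, GAGGAAGT for PU.1 and GAAA repeated after any 2 bases for the interferon-stimulated response element (ISRE). Of 32851 promoter windows of the same length, 50.8% held the NF-kB letters, 7.81% those of AP-1, 3.2% those of PU.1 and 3.44% those of the ISRE. The Cd80 window held NF-kB letters that began 210 and 52 bases before the start site, and AP-1 letters that adjoin the second of these, beginning at 42 bases before it. The Gpr35 window held AP-1 letters at 184 bases and an overlapping pair of NF-kB matches at 54 and 53 bases before the start. The Irak4 window held NF-kB letters at 37 bases, the Apobec3 window held NF-kB letters at 210 bases and ISRE letters at 140 bases, and the P2ry13 window held none of the 4 motifs. The other Gpr35 window, which began at 92972869 on chromosome 1, held none of the 4 motifs, and the other Apobec3 window held NF-kB letters at 84 bases and no ISRE. Of the genes that rose, Plac9b held NF-kB letters at 98 and 26 bases and Baz2b held none of the 4. Such matches describe the letters only.

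The comparison with the other groups placed the 9 genes. At 1 mg, the mean level was 8.19 ± 1.36 TPM (SD, n = 5) for Gpr35, 126 ± 26 TPM for Cotl1, 7.39 ± 0.817 TPM for Irak4 and 21 ± 4.57 TPM for Plac9b, and in all 9 genes the 1 mg mean lay between the IgG mean and the 0.5 mg mean. The difference between doses (1 mg minus 0.5 mg, log2 scale) was 1.22 for Gpr35 (95% interval 0.63 to 1.82), 0.75 for Cotl1 (0.30 to 1.19), 0.53 for Irak4 (0.21 to 0.85) and -0.91 for Plac9b (-1.38 to -0.44). The interval left out 0 in 6 of the 9 genes, Cd80 (0.65) and Gm15934 (0.62) included, and the adjusted p was 0.05 or above in all 9, 0.634 for Gpr35 being the lowest. For Baz2b (-0.52 to 0.12), P2ry13 (-0.27 to 0.94) and Apobec3 (-0.05 to 0.84) the interval held 0. The 9 genes were chosen by their values in the 0.5 mg mice, which enter both comparisons. Over all genes, limma called 0 genes between doses (865 or 5.29% at an unadjusted p under 0.05). Against syngeneic IgG mice, where 239 genes (1.46%) were called higher and 1077 (6.59%) lower at 0.5 mg, P2ry13 was called lower (-1.50, adjusted p = 0.0169 from limma) and Baz2b higher (0.61, adjusted p = 0.0381). Mean P2ry13 was 3.58 ± 0.675 TPM (SD, n = 3) in syngeneic IgG mice, and Irak4 was 7.06 ± 0.712 TPM there.

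Phagocyte genes had low levels in all 3 treated mice, although 1 gene of their list passed the adjusted test. Among 17 Fc gamma receptor and phagocytosis genes, 1 was called lower (Cotl1) and 14 were lower at an unadjusted p under 0.05, beside 8.78% of all tested genes. In 12 of the 17 all treated mice lay below the IgG mice, beside 6.88% of all tested genes. The median log2 fold change was -1.28, against -0.0046 over all genes. Fgr, a kinase of the Src family in myeloid cells, was measured at 8.81, 31.4 and 8.62 TPM in IgG mice and 2.34, 2.85 and 3.6 TPM in 0.5 mg mice (adjusted p = 0.0819 from limma). Rac2, a small GTPase of blood cells, lay at 30.1, 68.2 and 32.8 TPM and 14, 12.9 and 16.4 TPM. Fcgr3, the low-affinity activating Fc gamma receptor, lay at 206, 560.4 and 272 TPM and 139, 71.3 and 150.2 TPM (log2 fold change -1.46, standard error 0.36, adjusted p = 0.111). IgG mouse 2 held the highest value of each of these genes, and the lowest IgG mouse still stood above the highest treated mouse. Without IgG mouse 1, 11 of the 17 genes were called lower, where 3.34% of all genes were, and without IgG mouse 2 none were, at a median of -0.88.

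Of 20 monocyte and macrophage genes, all lay below 0 in log2 fold change (median -1.11), 16 had an unadjusted p under 0.05 (beside 8.78% of all tested genes lower) and 8 had groups that did not overlap (beside 6.88%), while none was called. Lyz2, the lysozyme of myeloid cells, lay at 2269, 5356 and 2250.0 TPM in IgG mice and 1092, 817 and 986 TPM in 0.5 mg mice (log2 fold change -1.65, standard error 0.34, adjusted p = 0.0846 from limma). On TPM each treated mouse held about the same Lyz2 level, below that of each IgG mouse. The median-ratio factors of the treated mice differ (0.672, 1.13 and 0.919), so scaling would spread these levels, still below the IgG mice. Cd68, a lysosomal protein of macrophages, was measured at 114, 399 and 206 TPM and 84.6, 75.1 and 120.5 TPM, and IgG mouse 1 lay within the treated range. Adgre1, which encodes F4/80, was measured at 18.4, 35.8 and 33.5 TPM and 12.1, 23.1 and 20.9 TPM and its groups overlapped (log2 fold change -0.61, adjusted p = 0.51). Itgam, Mpeg1 and Tyrobp did not overlap between groups. Without IgG mouse 1, 13 of the 20 were called lower (beside 3.34% of all genes), and without IgG mouse 2 none was and the median was -0.71. Transcripts of red blood cells and platelets also lay below 0 in all 8 tested genes (median -1.34, and -0.49 without IgG mouse 2), with 1 gene (Ppbp) free of overlap. Their mean log2(TPM + 1) was 4.11, 6.76 and 5.42 in IgG mice and 3.92, 4.3 and 4.76 in 0.5 mg mice, and the part of blood content in the leukocyte values was not tested. In bulk skin, fewer cells of a type and less RNA per cell cannot be told apart.

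Of 16 genes of the alternative macrophage programme none was called, 13 lay below 0 and 3 above (median -0.86, and -1.19 to -0.56 on leaving out 1 of the 6 mice). Il4ra, the receptor chain for IL-4 and IL-13, lay at 58.8, 172 and 91.2 TPM and 55.3, 35.8 and 58.4 TPM without overlap (log2 fold change -0.99, adjusted p = 0.209). The complement genes C1qa, C1qb and C1qc, which macrophages make, did not overlap either, with C1qc at 507, 956 and 728 TPM and 423, 289 and 448 TPM. These separations hold on TPM only. Divided by the median-ratio factors, 0.5 mg mouse 1 would lie above IgG mouse 1 in Il4ra and in each of the C1q genes. Chil3 spanned 188, 2276 and 959 TPM and 299, 2.19 and 72.3 TPM, and 0.5 mg mouse 1 lay above IgG mouse 1. Mgl2, a lectin of dermal macrophages and dendritic cells, had the opposite sign, at 65, 2.39 and 55.7 TPM and 62.6, 172 and 122 TPM, with IgG mouse 2 far below the other mice. Of the 16 genes, 6 lower and 1 higher ones had an unadjusted p under 0.05, beside 8.78% and 5.7% of all tested genes.

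No oxidase gene and 1 of the Toll-like and IL-1 receptor genes passed the adjusted test. Ncf1, the organising subunit of the phagocyte NADPH oxidase, was measured at 32.9, 109 and 47.2 TPM and 12.6, 15.9 and 18.9 TPM (log2 fold change -1.77, standard error 0.32), and its adjusted p of 0.0589 missed the threshold. It did not overlap, and Cyba and Cybb of the same complex did not either. For Cyba this holds on TPM only, because with the median-ratio factors 0.5 mg mouse 1 would lie above IgG mouse 1. In all, 4 of 7 genes of the list were apart between groups and 6 had an unadjusted p under 0.05 (median -1.13, and -0.74 without IgG mouse 2). Over all tested genes, 6.88% were lower without overlap and 8.78% were lower at that p. Among 21 genes of Toll-like and IL-1 receptor signalling, Irak4 was called, 9 were lower at an unadjusted p under 0.05 and 7 did not overlap (median -0.66, and -0.38 without IgG mouse 2). The counts of 9 and 7 stand beside 8.78% and 6.88% of all tested genes. Myd88, the adaptor beside IRAK4, lay at 45.4, 60.6 and 51.8 TPM and 32.5, 22.2 and 38.3 TPM (log2 fold change -0.77, standard error 0.19, adjusted p = 0.114 from limma). Tlr2, the receptor for bacterial lipopeptides, lay at 13.7, 66.7 and 16 TPM and 8.08, 4.84 and 7.39 TPM. Both genes were lower in each treated mouse than in any IgG mouse. Cd14, the co-receptor for endotoxin, overlapped, at 36, 1022 and 120.4 TPM and 41.4, 11.8 and 53.8 TPM. Of 16 actin regulators of leukocytes, all lay below 0 (median -0.72, and -0.42 without IgG mouse 2). An unadjusted p under 0.05 was found for 9 and no overlap for 7, beside 8.78% and 6.88% of all tested genes. Hcls1, at 33, 103 and 41.5 TPM and 18.8, 17.4 and 23.7 TPM, was among those without overlap. Cotl1 stands in this list and in that of phagocytosis.

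**Figure D3:**
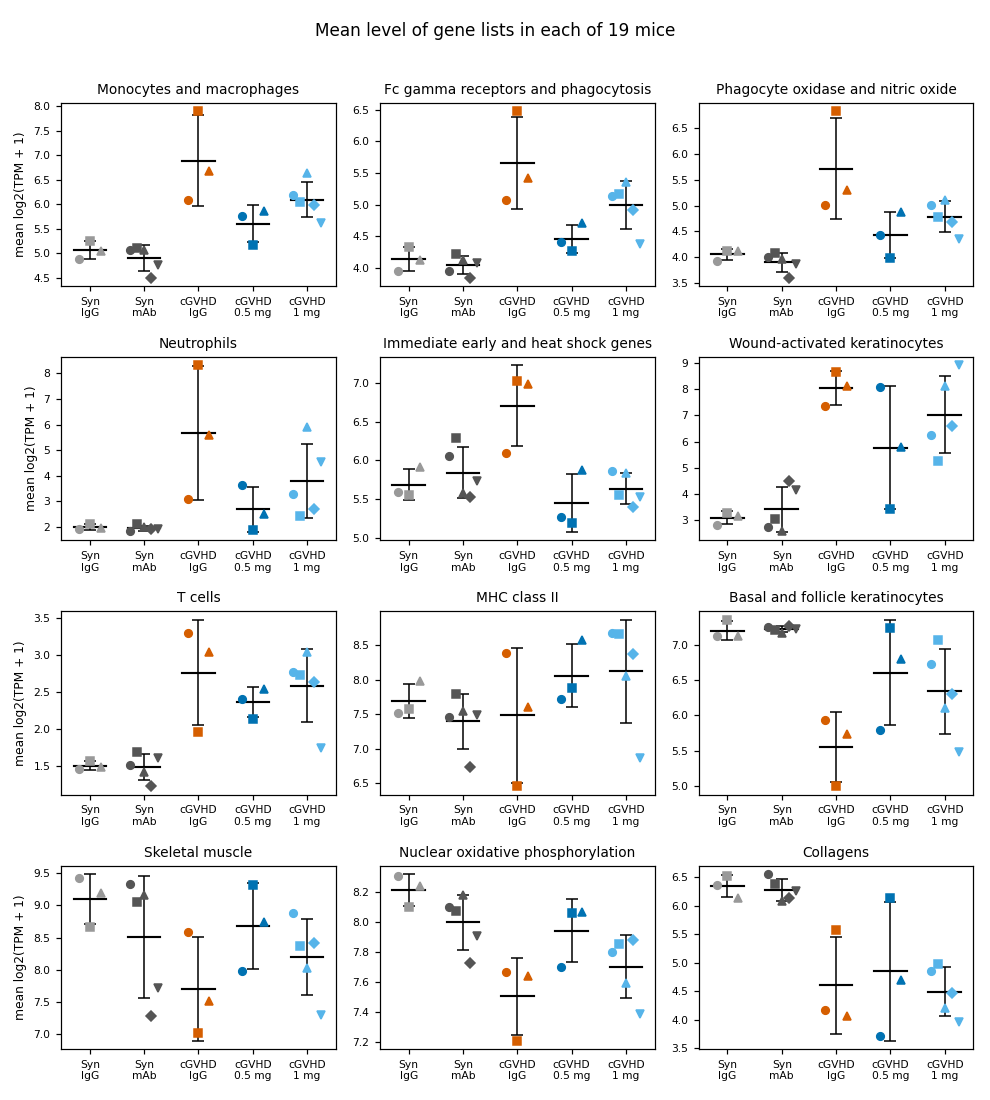
Mean log2(TPM + 1) over the tested members of 12 gene lists in each of 19 mice, by group, with a line at the mean, bars of 1 SD and mouse numbers by marker shape. For monocytes and macrophages the IgG mice lie at 6.08, 7.9 and 6.68 and the 0.5 mg mice at 5.76, 5.17 and 5.87, while for neutrophils, T cells, wound keratinocytes and collagens the groups overlap.

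As a mean over its members, the level of 7 of the 53 lists was lower in every 0.5 mg mouse than in any IgG mouse, and that of 1 list was higher. Over single tested genes the shares were 6.88% and 4.25%. A mean over many members is another unit than a single gene, and no background share for such means was computed. Lists can share members, as Cotl1 is in those of phagocytosis and actin regulators, so the lists are not separate results. The 7 lists were those of monocytes and macrophages, phagocytosis, phagocyte oxidase, actin regulators, inflammasome and cell death, immediate early and heat shock genes, and the unfolded protein response. The list with a higher level was nuclear oxidative phosphorylation. Phagocytosis genes had a mean log2(TPM + 1) of 5.07, 6.48 and 5.42 in IgG mice and 4.4, 4.27 and 4.7 in 0.5 mg mice. In the other 45 lists the mean levels overlapped.

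**Figure D4:**
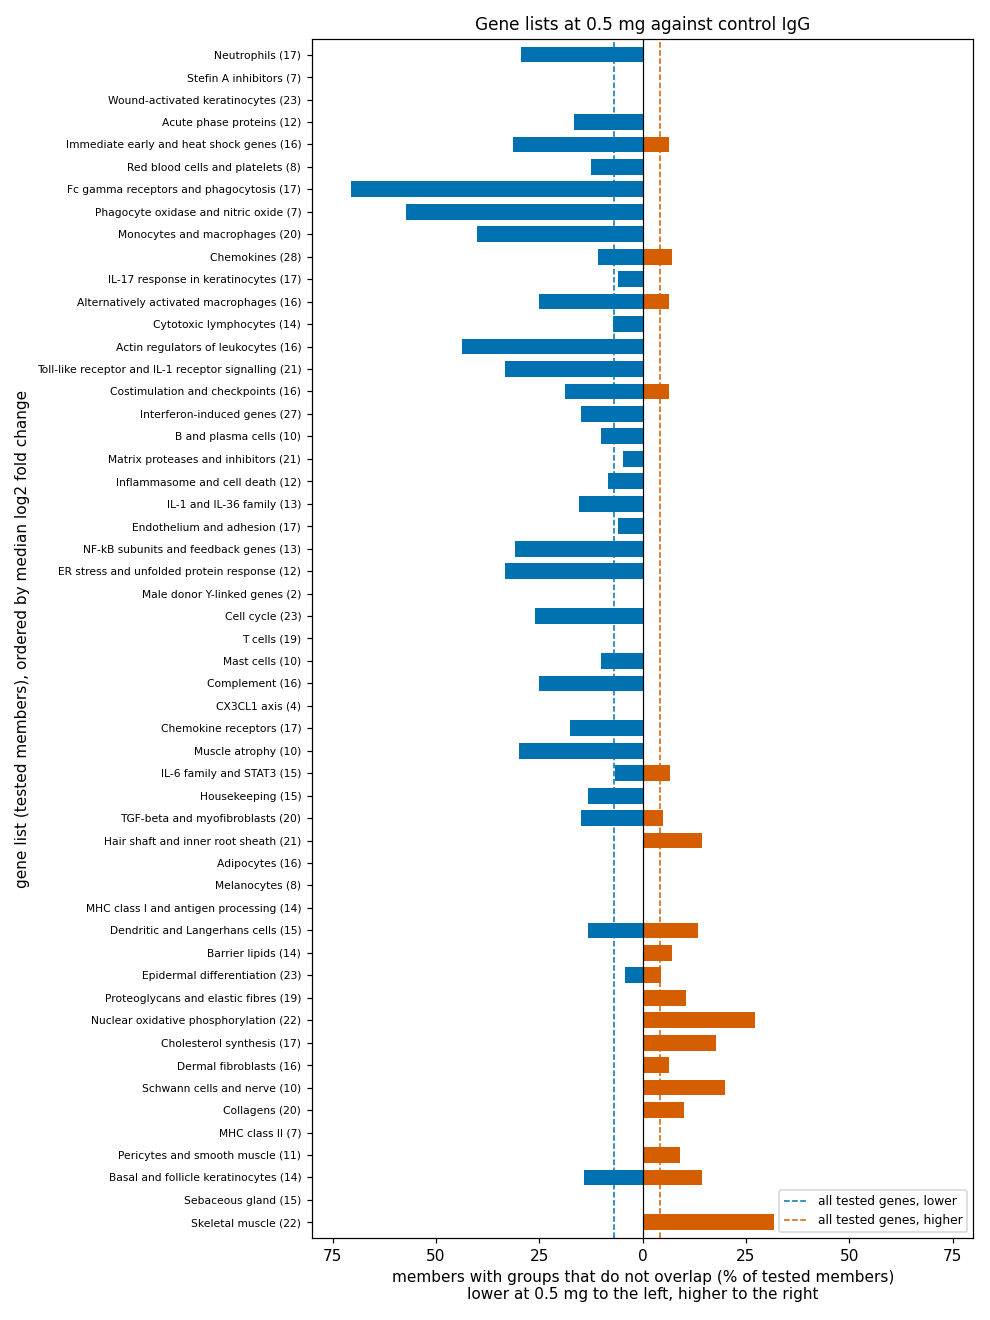
Share of the tested members of each of 53 gene lists whose 3 treated mice all lay below (left) or above (right) the 3 IgG mice, in percent, with dashed lines at the shares over all tested genes (6.88% lower and 4.25% higher) and the number of tested members in brackets. Phagocytosis, with 12 of 17 members lower, and skeletal muscle, with 7 of 22 members higher, reach farthest on each side.

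Neutrophil transcripts had the lowest median of the 53 lists, and for them and the acute phase proteins IgG mouse 2 carried much of the difference. The median log2 fold change of the neutrophil genes was -3.37, and -1.52 without IgG mouse 2. Of 17 genes, 12 had an unadjusted p under 0.05 but 5 were free of overlap, beside 8.78% and 6.88% of all tested genes that were lower. Fpr1, a receptor for bacterial formyl peptides, lay at 1.98, 101 and 6.43 TPM in IgG mice and 0.17, 0 and 0.12 TPM in 0.5 mg mice (log2 fold change -3.58, standard error 0.88, adjusted p = 0.108 from limma). Its groups were apart, whereas S100a8, which neutrophils and stressed keratinocytes make, overlapped at 416, 14065 and 1632 TPM and 1419.6, 10.6 and 40.4 TPM. Other neutrophil genes among the largest decreases were Mmp8 at 1.27, 288 and 18.9 TPM and 0.88, 0.21 and 0.29 TPM and Fpr2 at 8.35, 207 and 25.3 TPM and 5.57, 0.58 and 3.45 TPM. Clec4d, a lectin receptor for fungi on myeloid cells, and Acod1, the macrophage enzyme that makes itaconate, also had IgG mouse 2 as the highest and 0.5 mg mouse 2 as the lowest mouse. IgG mouse 1 lay just above the treated mice in each of these 4 genes.

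Saa3, an acute phase protein, was measured at 1190.0, 18983 and 8492 TPM in IgG mice and 1112, 2.5 and 627 TPM in 0.5 mg mice (log2 fold change -5.42, standard error 1.91, adjusted p = 0.21 from limma). The groups were apart only by the gap between IgG mouse 1 and 0.5 mg mouse 1, and 0.5 mg mouse 2 had almost none of the transcript. Lcn2, which binds bacterial siderophores, showed the same order at 50.8, 1496 and 309 TPM and 45.9, 9.21 and 32.5 TPM. Of 12 acute phase genes tested, 8 had an unadjusted p under 0.05 and 2 (Saa3 and Lcn2) did not overlap. Over all tested genes, 8.78% were lower at that p and 6.88% were lower without overlap. The median of the acute phase genes was -1.95, and -1.13 without IgG mouse 2.

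Cytokines of the IL-1 and IL-6 families overlapped for the most part. Il6 was measured at 0.46, 123 and 7.21 TPM and 1.61, 0.05 and 0.3 TPM, and Il1b at 9.17, 1049 and 45.5 TPM and 21.4, 1.32 and 7.27 TPM, with IgG mouse 2 far above all other mice in both. Socs3, the feedback inhibitor induced by IL-6, did not overlap, at 40.8, 419.6 and 133 TPM and 31.1, 11.3 and 38.8 TPM (log2 fold change -2.41, standard error 0.61, adjusted p = 0.115 from limma). Nlrp3, the sensor of the inflammasome, lay at 1.32, 37.4 and 4.09 TPM and 0.73, 0.57 and 0.61 TPM, also without overlap. Tnfaip3, the NF-kB inhibitor A20, lay at 16.4, 76.5 and 45 TPM and 7.09, 13.4 and 15.6 TPM. In that gene the 3 treated mice stayed below 16.4 TPM, the level of IgG mouse 1.

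None of the chemokines was called. Of 28 chemokines, 11 lower and 2 higher ones had an unadjusted p under 0.05, beside 8.78% and 5.7% of all tested genes. Free of overlap were 3 lower and 2 higher ones, beside 6.88% and 4.25% of all tested genes. Ccl6 and Ccl9, which myeloid cells make, were at 749, 1909 and 1422 TPM and 166, 541 and 282 TPM in IgG mice and at 648, 304 and 504 TPM and 111, 104 and 104 TPM in 0.5 mg mice. Ccl2, the main attractant of inflammatory monocytes, overlapped at 55.1, 391 and 97.7 TPM and 67.5, 8.59 and 66 TPM. Ccl27a, the chemokine of keratinocytes that attracts skin-homing T cells, had the opposite sign, at 90.2, 2.5 and 19.1 TPM and 90.4, 731 and 837 TPM (log2 fold change 4.37, standard error 1.17, adjusted p = 0.124 from limma). For Ccl27a, 0.5 mg mouse 1 was level with IgG mouse 1, and mice 2 and 3 stood far above all IgG mice. Among receptors, Ccr1 lay at 11.5, 108 and 21.3 TPM and 9.66, 2.95 and 4.6 TPM and Cxcr4 at 15.8, 72.6 and 19.9 TPM and 6.82, 9.45 and 8.41 TPM, both without overlap.

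T cell transcripts were closer between groups than those of monocytes and macrophages. None of the 19 T cell genes was free of overlap, and the median log2 fold change was -0.37 (-0.89 without IgG mouse 2). Of the 19, 2 (Cd8a and Cd8b1) were lower at an unadjusted p under 0.05, a share near the 8.78% of all tested genes. Cd3e, a chain of the T cell receptor complex, was measured at 24.3, 6.06 and 15.7 TPM and 7.33, 7.46 and 11 TPM, with IgG mouse 2 below all treated mice (log2 fold change -0.60, adjusted p = 0.569 from limma). Cd8a, the co-receptor of cytotoxic T cells, lay at 10.3, 2.76 and 9 TPM and 2.23, 1.93 and 3.97 TPM. Of 14 cytotoxic lymphocyte genes tested, 13 lay below 0 (median -0.76, and -1.14 without IgG mouse 2) and none was called. An unadjusted p under 0.05 was found for 5 and no overlap for 1, beside 8.78% and 6.88% of all tested genes. Gzmb, the granzyme of killer cells, was free of overlap at 19.5, 19.6 and 36.8 TPM and 12.6, 2.94 and 18.5 TPM (log2 fold change -1.31, adjusted p = 0.197). Its groups were separated by a narrow gap between IgG mouse 1 and 0.5 mg mouse 3. Pdcd1, which encodes the inhibitory receptor PD-1, lay at 4.51, 0.96 and 2.67 TPM and 0.14, 0.51 and 0.75 TPM, and Havcr2, the receptor TIM-3, at 8.17, 24.9 and 8.74 TPM and 5.05, 5.54 and 3.31 TPM, again without overlap. Tnfrsf18, the receptor GITR, was higher in each treated mouse, at 29.4, 10.4 and 25.5 TPM and 30.5, 33.3 and 59.2 TPM.

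Antibody and interferon genes were lower by value in most but not all treated mice. Ighg2b, the heavy chain of IgG2b, had the lowest fold change of the named genes, at 227, 84.6 and 2542 TPM in IgG mice and 12.7, 0.9 and 22.4 TPM in 0.5 mg mice (log2 fold change -5.44, standard error 1.33, adjusted p = 0.109 from limma). IgG mouse 3 held most of the transcript, and the other IgG mice also stood above the treated mice. Igkc, the kappa light chain constant region, overlapped at 3331, 1238 and 10144 TPM and 2236, 213 and 1586 TPM. Of 10 B and plasma cell genes tested, 9 lay below 0 (median -0.60). None had an unadjusted p under 0.05 and 1 was lower without overlap, beside 8.78% and 6.88% of all tested genes. Of 27 interferon-induced genes, Apobec3 was called, 6 were lower at an unadjusted p under 0.05 and 4 were free of overlap, with a median of -0.61 (-0.15 without 0.5 mg mouse 2). Over all tested genes, 8.78% were lower at that p and 6.88% were lower without overlap. Oas1a, an antiviral enzyme, lay at 7.16, 17.8 and 7.06 TPM and 3.57, 3.55 and 5.64 TPM. Cxcl10, an attractant of CXCR3-bearing T cells, lay at 95.3, 97.3 and 179.6 TPM and 58.9, 7.21 and 76 TPM, again without overlap. The 14 genes of MHC class I and its peptide loading had a median of 0.07 and none was free of overlap. All 7 MHC class II genes lay above 0 (median 0.56, and 0.07 without IgG mouse 2), none was free of overlap, and H2-Aa was at 1446, 272 and 622 TPM and 1061, 911 and 1753 TPM, the lowest value being that of IgG mouse 2.

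Many epidermal transcripts differed between the treated mice, and others depended on single IgG mice. The median of 23 epidermal differentiation genes was 0.28, 1.30 without IgG mouse 1 and -0.37 without IgG mouse 2. Krt6b, a keratin of wounded epidermis, was measured at 3515, 2412 and 4056 TPM in IgG mice and 2955, 14.9 and 581 TPM in 0.5 mg mice, so that mouse 1 stayed at the IgG level while mouse 2 was far below it. Of 23 wound-associated keratinocyte genes tested, 11 were lower at an unadjusted p under 0.05 and none was free of overlap, beside 8.78% and 6.88% of all tested genes. The median of the wound-associated genes was -2.42 with all mice, -3.91 without 0.5 mg mouse 1 and -1.07 without 0.5 mg mouse 2. The stefin A inhibitors, protease inhibitors of epidermis and neutrophils, also followed mouse 2, with Stfa3 at 4315, 3011 and 5538 TPM and 8160.1, 70.6 and 1819.5 TPM. Krt15, a keratin of the follicle bulge, lay at 109, 4.75 and 33.4 TPM and 102, 1622 and 952 TPM, where mice 2 and 3 were above all IgG mice and mouse 1 was not. Sox9, a transcription factor of follicle stem cells, was free of overlap at 3.59, 3.25 and 3.45 TPM and 5.7, 14.7 and 12.4 TPM (log2 fold change 1.34, standard error 0.40, adjusted p = 0.158 from limma). Epcam, an adhesion protein of follicle keratinocytes and Langerhans cells, lay at 125, 31.8 and 85 TPM and 146, 172 and 218 TPM, and Cd207, the Langerhans cell lectin langerin, at 1.95, 0.04 and 0.3 TPM and 2.26, 32 and 3.92 TPM. Both stand in the list of 15 dendritic and Langerhans cell genes, of which 9 lay above 0 and 6 below (median 0.145). Free of overlap were 2 higher ones (Epcam and Cd207) and 2 lower ones (Cd80 and Fscn1), beside 4.25% and 6.88% of all tested genes.

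The largest increases without overlap included secreted products of epithelium, none of which passed the adjusted test. Pyy, which encodes peptide YY, was measured at 41.4, 0.63 and 20.1 TPM in IgG mice and 93.3, 660.0 and 1265 TPM in 0.5 mg mice (log2 fold change 5.24, standard error 1.23, adjusted p = 0.104 from limma). The mean at 0.5 mg, 673 ± 586 TPM (SD, n = 3), stood beside 55.4 ± 22.4 TPM in syngeneic IgG mice. Defb6, a beta-defensin, lay at 58.7, 9.67 and 64.1 TPM and 178, 1746 and 1666 TPM (log2 fold change 4.54, standard error 1.10, adjusted p = 0.108), against 1553 ± 208 TPM in syngeneic IgG mice. In both genes mouse 1 was the lowest of the treated mice but above the highest IgG mouse. Fcgbp, an IgG Fc-binding mucus protein, lay at 103, 0.79 and 28.4 TPM and 192, 265 and 639 TPM, and Wfdc3, of a family of protease inhibitors, at 0.82, 0 and 1.01 TPM and 5.87, 34.6 and 54.1 TPM. Serpinb6e was nearly absent in IgG mice (0.12, 0 and 0 TPM) and reached 0.44, 14.7 and 14.5 TPM at 0.5 mg, which remained below syngeneic IgG skin at 52.2 ± 2.68 TPM (log2 fold change -2.92, adjusted p = 0.0411). Far2, which makes fatty alcohols in the sebaceous gland, lay at 0.09, 0.02 and 0.14 TPM and 0.03, 54.6 and 31.2 TPM, with 0.5 mg mouse 1 near 0 like the IgG mice.

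**Figure D5:**
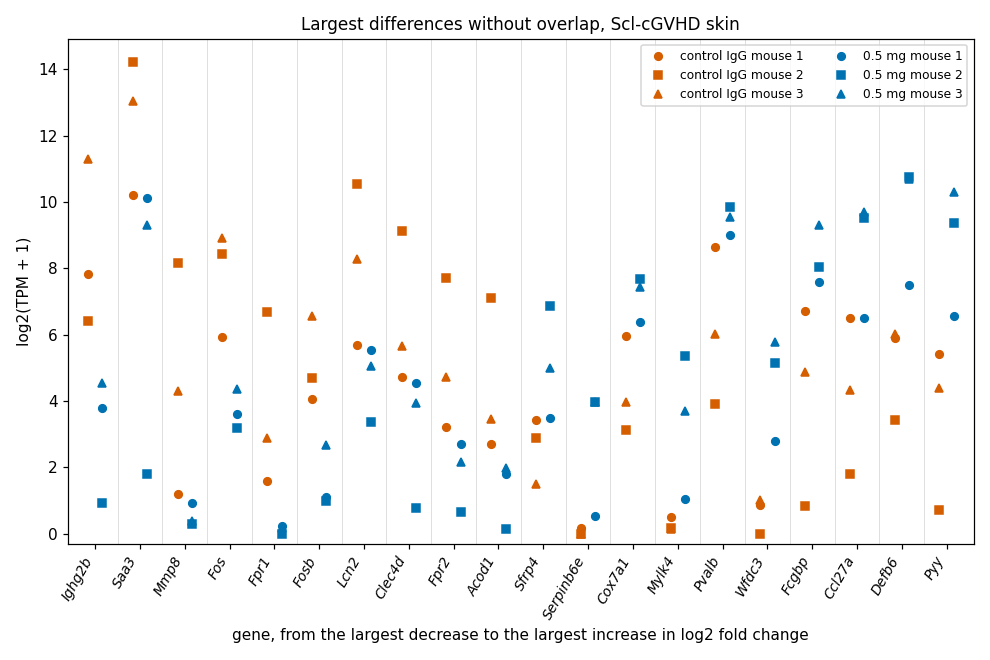
Level as log2(TPM + 1) of the 10 largest decreases and 10 largest increases among genes with an unadjusted p under 0.05, groups without overlap and a mean of at least 5 TPM in 1 of the groups, for each of the 6 mice. The gap between the lowest IgG mouse and the highest treated mouse is narrow for Saa3 (1190.0, 18983 and 8492 TPM against 1112, 2.5 and 627 TPM) and wide for Fos (59.9, 345 and 480.4 TPM against 11.3, 8.11 and 19.6 TPM).

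Immediate early genes, which respond within minutes to growth signals and stress, formed another group with low treated values. Fos was measured at 59.9, 345 and 480.4 TPM in IgG mice and 11.3, 8.11 and 19.6 TPM in 0.5 mg mice (log2 fold change -4.04, standard error 0.91, adjusted p = 0.104 from limma), and Fosb at 15.5, 25 and 94.2 TPM and 1.15, 0.99 and 5.39 TPM. Atf3, a stress-induced transcription factor, lay at 27.3, 42.2 and 84.3 TPM and 7.39, 7.94 and 16.7 TPM (log2 fold change -2.10, standard error 0.40, adjusted p = 0.072). IgG mouse 1 was the lowest IgG mouse in these 3 genes and still lay above each treated mouse. Of 16 immediate early and heat shock genes, an unadjusted p under 0.05 was found for 10 with lower and 2 with higher levels (beside 8.78% and 5.7% of all genes). Free of overlap were 5 lower and 1 higher ones (beside 6.88% and 4.25% of all genes). Without IgG mouse 1, 10 were called lower and 1 higher (beside 3.34% and 1.66%), and without IgG mouse 2 none was called. In 1 mg mice, Fos averaged 23.4 ± 13.3 TPM (SD, n = 5), against 29.9 ± 25.9 TPM (SD, n = 3) in syngeneic IgG mice. Of 12 genes of the unfolded protein response, 4 were lower without overlap, beside 6.88% of all genes. Pdia4, a protein folding enzyme, lay at 48.4, 67.8 and 73.6 TPM and 36.4, 35.8 and 36.2 TPM.

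Genes of skeletal muscle and nuclear genes of oxidative phosphorylation had medians above 0, and none was called. Of 22 skeletal muscle genes, 8 were higher at an unadjusted p under 0.05 and 7 were free of overlap, beside 5.7% and 4.25% of all genes. Their median log2 fold change was 1.12 (0.67 without IgG mouse 2). Pvalb, a calcium buffer of fast muscle fibres, lay at 397, 14.1 and 64.3 TPM and 510.1, 913 and 750.3 TPM (log2 fold change 3.27, standard error 0.86, adjusted p = 0.122 from limma). Mylk4, a kinase of heart and skeletal muscle, lay at 0.42, 0.12 and 0.1 TPM and 1.08, 40.3 and 11.9 TPM. IgG mouse 2 was lowest for Pvalb, and 0.5 mg mouse 2 was highest for both genes. Myod1 and Myog, regulators of muscle regeneration, had the opposite sign, with Myog at 8.83, 101 and 4.94 TPM and 2.71, 1.58 and 2.4 TPM. All 22 nuclear genes of oxidative phosphorylation lay above 0 (median 0.30, and 0.18 without IgG mouse 2). An unadjusted p under 0.05 was found for 6 and no overlap for 6, beside 5.7% and 4.25% of all genes that were higher. Cox7a1, the muscle form of a cytochrome oxidase subunit, lay at 61.4, 7.81 and 14.8 TPM and 82, 205 and 172 TPM, and Ndufs1, a complex I subunit, at 60.1, 45.1 and 59.3 TPM and 65.8, 97.2 and 85.9 TPM. Mitochondrial transcripts were highest in 0.5 mg mouse 2 (9.93%) and lowest in 0.5 mg mouse 1 (1.52%), and the amount of muscle in each piece of skin was not tested as a source of these values.

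Collagen transcripts in the treated group rested on 1 mouse. Col1a1 was measured at 19, 316 and 21.5 TPM in IgG mice and 13.8, 991 and 58 TPM in 0.5 mg mice, Col1a2 at 29.7, 312 and 40.5 TPM and 32, 1352 and 99.1 TPM, and Col3a1 at 47, 779 and 41.1 TPM and 25.7, 1959.8 and 122 TPM. In each of these fibrillar collagens 0.5 mg mouse 2 was the highest and IgG mouse 2 the next, the groups overlapped, and the adjusted p was 0.812, 0.676 and 0.877 from limma. Syngeneic IgG mice (n = 3) averaged 1475 ± 514 TPM for Col1a1, 1970 ± 600 TPM for Col1a2 and 1865 ± 767 TPM for Col3a1 (SD). All Scl-cGVHD IgG mice lay below these means, and of the 6 mice 0.5 mg mouse 2 lay nearest to them. The 20 collagen genes had a median of 0.43, which became -0.37 without 0.5 mg mouse 2, and the medians of proteoglycan and fibroblast genes went from 0.29 to -0.23 and from 0.34 to -0.13. Sfrp4, a secreted WNT inhibitor, lay at 9.82, 6.37 and 1.8 TPM and 10.2, 115 and 30.7 TPM, where 0.5 mg mouse 1 was barely above IgG mouse 1. Col16a1, which associates with fibril-forming collagens, was free of overlap at 44.1, 31.2 and 25.2 TPM and 59.2, 89.7 and 53.9 TPM (log2 fold change 0.99, standard error 0.26, adjusted p = 0.118). Acta2, the smooth muscle actin of myofibroblasts and vessel walls, lay at 153, 58.5 and 117 TPM and 147, 192 and 180.2 TPM.

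Among fibrosis mediators, Tgfb1, the cytokine that drives collagen synthesis in fibroblasts, was lower in each treated mouse, at 42.5, 92.5 and 54.1 TPM in IgG mice and 25.4, 32.3 and 35.3 TPM in 0.5 mg mice (log2 fold change -0.94, standard error 0.23, adjusted p = 0.108 from limma). In 1 mg mice, Tgfb1 averaged 41.1 ± 6.43 TPM (SD, n = 5), against 31.9 ± 4.8 TPM (SD, n = 3) in syngeneic IgG mice. Thbs1, a matrix protein that activates latent TGF-beta, lay at 28.3, 269 and 43.1 TPM and 19.9, 23 and 24.8 TPM without overlap. Spp1 (osteopontin) and Fn1 (fibronectin) overlapped, with Spp1 at 16, 1412 and 81.2 TPM and 41, 7.72 and 11.2 TPM. IgG mouse 2 alone held the high Spp1 value. Of 17 endothelial and adhesion genes, 5 were lower at an unadjusted p under 0.05, beside 8.78% of all tested genes. Cd93, a receptor of endothelium and myeloid cells, was the single gene free of overlap (beside 6.88% of all tested genes lower). It lay at 4.54, 27 and 6.11 TPM and 2.22, 3.61 and 2.38 TPM. Vcam1, the adhesion molecule for monocytes and lymphocytes on inflamed vessels, lay at 33.2, 76.7 and 82.8 TPM and 28.9, 23.1 and 38.9 TPM, and IgG mouse 1 lay within the treated range.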

How the data were processed

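The submitters' notes and the methods of the study give stranded mRNA libraries, Trimmomatic, FastQC, alignment with STAR 2.5.2b to GRCm38 (Ensembl release 88) and RSEM 1.2.31. The deposited table holds TPM made by the authors, for 50686 genes, scaled to the same total per mouse, so a few abundant transcripts lower all other values and depth is lost. The alignment counts deposited by the authors name libraries by group and not by mouse, and were used as a range. The precision of a value was taken from the spread between mice.

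TPM is not a count, so log2(TPM + 1) was tested with limma 3.58.1 in R 4.3.3 (trended variance, robust prior, two-sided, Benjamini-Hochberg over 16350 genes, threshold 0.05), with all 5 groups in 1 fit. Fold changes on this scale understate changes of low genes. With 3 against 3 mice an exact permutation test cannot reach 0.05, so none was run. Named genes are all called genes, the 10 largest increases and decreases among genes with an unadjusted p under 0.05, no overlap and a mean of at least 5 TPM (numbered gene models, antigen receptor segments and keratin-associated proteins passed over), up to 4 members of each of 53 lists with the smallest p, and genes central to the study. Other list members were named after their values were seen. The comparison, the lists and the genes were chosen with earlier results of these data known. The procedure was tested on simulated data. Alternatives were a smaller pseudocount (0.1), no filter on low values or a stricter one (5 TPM), median-ratio factors, quantile normalization, the compared groups alone, no trend or robust prior, weights per mouse, and each of 19 mice left out. Some list members are not reported here.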

Additional observations from a re-analysis of the deposited data

How the results depend on the processing

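The counts of called genes, 2 higher and 7 lower (9 in all), depended on nearly every setting tried. They were 0 with a pseudocount of 0.1 and 0 with the compared groups alone (smallest adjusted p = 0.525 from limma, 996 genes at an unadjusted p under 0.05), where 4 residual degrees of freedom remain. They were 6 and 11 (17 in all) without a filter, 2 and 4 with a filter of 5 TPM, and 1 and 6 without trend and robust prior. Scaling raised them to 40 and 53 (93) with median-ratio factors and 24 and 19 (43) with quantile normalization, and the share of calls that were higher went from 22.2% to 43% and 55.8%. Weights per mouse gave 4458 and 4951 (9409), but that fit gave 0.5 mg mouse 3 a weight of 98.2 against at most 4.88 in the others, did not converge, and is not usable. Over 19 fits that each left out a mouse, the counts ran from 0 to 271 higher, 0 to 545 lower and 0 to 816 in all. Without IgG mouse 1, 0.5 mg mouse 1 or 1 mg mouse 5 the 9 genes were still called among 816, 226 and 46. Adjusted p values of the 9 genes reached 0.756 over the alternatives. Each gene was called in 8 to 13 of 26 or 27 alternatives, the unusable weights per mouse included, while their direction held in all. Tyr, a melanocyte gene, reversed with weights per mouse (-0.42). Of the other values of named genes, 5596 stayed on the same side of the threshold, 335 passed it, 155 no longer did, and 24, none of them called, changed sign. The 155 all belong to the 9 called genes, the only genes that could lose the threshold. Each of the 9 missed it in more alternatives than it passed. Of the list medians 1365 moved by less than the spread between mice and 66 by more. No paired analysis was possible because the labels number each mouse once and share no number between groups. The main limits are 3 mice a group and TPM without depth per mouse.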
